A study of Mus musculus with 48 samples.

Results

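The integrated stress response and amino acid supply genes controlled by ATF4 were read as 42 genes, picked by symbol out of the 53345 genes of the deposited tables. They comprise 5 transcription factors (Atf4, Atf5, Ddit3, Cebpb, Cebpg), 6 stress response regulators (Trib3, Chac1, Ddit4, Sesn2, Eif4ebp1, Sqstm1), 7 enzymes of amino acid synthesis (Asns, Psat1, Phgdh, Psph, Aldh18a1, Pycr1, Pck2) and 3 enzymes that pass serine carbon to folate (Shmt1, Shmt2, Mthfd2). The other members are 7 amino acid transporters (Slc7a11, Slc7a5, Slc3a2, Slc7a1, Slc1a5, Slc1a4, Slc38a2) and 14 genes for the charging and export of transfer RNA (Aars, Cars, Eprs, Gars, Iars, Lars, Mars, Nars, Sars, Tars, Vars, Wars, Yars and Xpot). Of these, 40 had values. Ddit3, which encodes CHOP, and Cebpb carry no value in any of the 48 libraries and were not analysed here. In Tregs 39 members passed the filter on low counts, and Slc7a11, the light chain of the cystine and glutamate exchanger, did not.

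The libraries are bulk mRNA-seq of T cells from the spleens of female C57BL/6 mice, 8 to 12 weeks old and with no disease. Every mouse received 2 doses of 500 µg of an isotype control or of an MHC class II blocking antibody, on the day before and the day of treatment, so the PBS controls carried isotype antibody in the isotype arm and blocking antibody in the MHC II block arm. On the treatment day the mice were given PBS or 25 µg of human IL-2 fused to Fc, as the wild-type sequence (WT IL-2), as the H16R mutein with a substitution in IL-2, or as the 3x mutein with several substitutions, and the spleens were taken on day 4. Tregs were the CD25-bound fraction of a magnetic isolation kit (8 groups of 4 libraries, 32 in all), and Tcons, the conventional T cells, were the CD25-negative flow-through of 2 mice of each group (16 libraries). In the isotype WT IL-2 Tregs 2 libraries carry the same mouse label, so that this group may hold 3 mice rather than 4.

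The integrated stress response is a signaling pathway in which several kinases, each sensing a different stress such as amino acid shortage or unfolded protein in the endoplasmic reticulum, phosphorylate the translation factor eIF2. General protein synthesis then slows, while the mRNA of Atf4 is translated more efficiently, and the ATF4 protein turns on genes that import and synthesize amino acids, charge transfer RNA and feed serine carbon into folate. ATF4 is therefore controlled in large part at translation, which mRNA levels do not record, and in T cells its target genes are known to be raised when cells grow after activation.

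Total counts ranged from 18.28 M to 51.24 M per Treg library (median 40.71 M) and from 31.31 M to 51.95 M per Tcon library (median 38.24 M), and the isotype PBS Tregs were the shallowest group (18.28 M to 34.58 M). The summed CPM (counts scaled to the library's size) of 3 Treg markers (Foxp3, Il2ra, Ikzf2) was 1603 to 2867 in Tregs and 190 to 743 in Tcons, and that of 3 CD4 T cell markers was 993 to 1790 and 881 to 1487, so the fractions matched their labels. Plasma cell and cell division transcripts moved with the groups. The sum of 4 plasma cell markers (Jchain, Sdc1, Mzb1, Tnfrsf17, none at 0 in any library) averaged 1722, 704, 328 and 121 CPM in isotype Tregs (PBS, WT IL-2, H16R and 3x, in this order), and 1406, 2432, 939 and 957 CPM under MHC II block. The sum of 8 cell division markers averaged 338, 526, 573 and 834 CPM in the isotype arm and 373, 524, 779 and 1237 under block. The first isotype PBS replicate stood apart in B cell markers (544 CPM against 99.9 to 129 in its group), as did the first MHC II block WT IL-2 replicate (518 against 71.3 to 107), which also had 483 CPM of myeloid markers where the other Treg libraries had 18.1 to 99.2. CD8 T cell markers summed to at most 45.1 CPM and red cell markers to at most 54 CPM in any Treg library, against at most 73.1 and 252 CPM in Tcons.

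Promoter sequence was available for 33 of the 42 members (RefSeq, GRCm38.p6, from 250 bases before to 50 bases after the annotated start). ATF4 binds DNA as a dimer with C/EBP proteins at composite elements, which were searched on both strands as TGATGNAA and TTGCATCA, a pair that overlaps because the reverse complement of TTGCATCA is a form of TGATGNAA. TGATGNAA was found in 12 of the 33 promoters (36.4%) and in 4.51% of all 27025 gene symbols with a promoter, and TTGCATCA in 8 of 33 (24.2%) and 1.03% of all symbols. The 12 genes were Aars, Asns, Chac1, Gars, Iars, Pck2, Pycr1, Slc1a4, Slc7a11, Tars, Trib3 and Yars. Windows of 30 bases are shown for 4 of them whose changes in Tregs were among the largest of the members, 5′ to 3′ on the gene's strand and with the matched letters in capitals.
Chac1 (chr2:119351038-119351067, plus strand, first capital at -193): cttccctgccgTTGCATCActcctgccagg
Pycr1 (chr11:120643833-120643862, minus strand, first capital at -103): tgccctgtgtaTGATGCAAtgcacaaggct
Asns (chr6:7693214-7693243, minus strand, first capital at -23): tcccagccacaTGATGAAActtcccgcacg
Slc1a4 (chr11:20332699-20332728, minus strand, first capital at -4): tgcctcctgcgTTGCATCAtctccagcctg

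The position of the first capital letter is counted from the start in RefSeq, and a match is a description of the letters in this window. The 4 genes encode enzymes or carriers with different roles. CHAC1 degrades glutathione, PYCR1 carries out the last step of proline synthesis, ASNS makes asparagine, and SLC1A4 carries alanine, serine and cysteine into the cell. Their gene bodies in GENCODE vM21, a different annotation of the same build whose starts can differ from those of RefSeq, lie at chr2:119351229-119354381 (Chac1), chr11:120635712-120643769 (Pycr1), chr6:7675169-7693254 (Asns) and chr11:20302180-20332713 (Slc1a4), so that the Asns window lies inside the GENCODE gene body and the Slc1a4 window spans its start.

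On the per-length FPKM scale, Atf4 mRNA (chr15:80255184-80257541) was the most abundant member in isotype PBS Tregs, at 307 ± 6.81 FPKM (mean ± SD, n = 4). It was followed by Sqstm1, the autophagy receptor p62, at 175 ± 6.87, and by Slc3a2, the heavy chain shared by several transporters, at 139 ± 7.54. Slc1a5, a glutamine carrier, stood at 105 ± 6.73 FPKM and Vars, which charges valine tRNA, at 88.3 ± 5.80. Slc38a2, a carrier of small neutral amino acids, followed at 80.1 ± 19.1, and its spread overlapped that of Vars. At the other end of the order were Pycr1 (2.38 FPKM), Asns (2.08), Trib3, a pseudokinase that restrains ATF4 (1.64), Chac1 (1.24), Slc1a4 (0.568) and Slc7a11 (0.0613). Chac1, Pycr1, Asns and Slc1a4, the members with the largest falls in the isotype arm with 3x, were thus at the low end of this order. Phgdh, Vars, Slc3a2, Slc7a11 and Eif4ebp1 are named here and below after their values were seen.

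Each IL-2 molecule was compared with PBS in the isotype arm to ask how the members respond in Tregs when MHC class II is available. Every gene was tested by quasi-likelihood in edgeR, the p-values were adjusted by Benjamini-Hochberg across the whole table, a gene was called at an adjusted p below 0.1, and the molecules in an arm share the same PBS libraries. With WT IL-2, 10 members rose and 17 fell of 39, where 26.0% of all genes tested rose and 26.2% fell. With H16R 10 rose and 23 fell (31.4% and 32.8% of all genes), and with 3x 8 rose and 24 fell (31.3% and 32.3%). The share that rose was near the background with WT IL-2 and below it with the muteins, the share that fell was above it with each molecule, and the median log2 fold change of the members was -0.12, -0.22 and -0.18 beside -0.01 for all genes in each of the 3 comparisons. The falls were most numerous among the 14 tRNA genes (8, 10 and 11 of them) and the 6 tested transporters (5, 5 and 4).

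Atf4 fell with each molecule in the isotype arm. Its level was 533, 513, 542 and 543 CPM in the PBS libraries, 469, 478, 517 and 485 with WT IL-2, 431, 448, 460 and 457 with H16R, and 403, 442, 447 and 441 with 3x. The ranges of PBS and WT IL-2 touched, and those of H16R and 3x lay wholly below PBS. The log2 fold changes were -0.13 ± 0.04 (SE; edgeR adjusted p = 0.0139), -0.24 ± 0.04 (2.1e-05) and -0.29 ± 0.04 (1.88e-06). In these bulk libraries fewer cells of a type and less RNA per cell cannot be told apart.

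The other transcription factors moved in different directions. Cebpg, a dimer partner of ATF4, rose with each molecule, from 27.0, 28.3, 28.7 and 27.2 CPM with PBS to 34.8, 34.2, 32.9 and 34.5 with WT IL-2, 36.4, 32.9, 38.4 and 30.7 with H16R, and 39.9, 31.2, 36.5 and 34.5 with 3x. Every treated library was above every PBS library. The log2 fold changes were 0.29, 0.32 and 0.37 (SE 0.07 for WT IL-2; edgeR adjusted p = 0.000688, 0.000159 and 3.17e-05). Atf5, a factor related to ATF4 and likewise controlled at translation, fell with H16R (-0.32, adjusted p = 0.0369) and 3x (-0.50, adjusted p = 0.00208), and its value with WT IL-2 was -0.24 ± 0.13 (adjusted p = 0.13). Its PBS libraries had 7.16, 6.2, 7.31 and 4.48 CPM, and the fourth of them overlapped the 4.13 to 4.61 CPM seen with 3x.

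**Figure D1:**
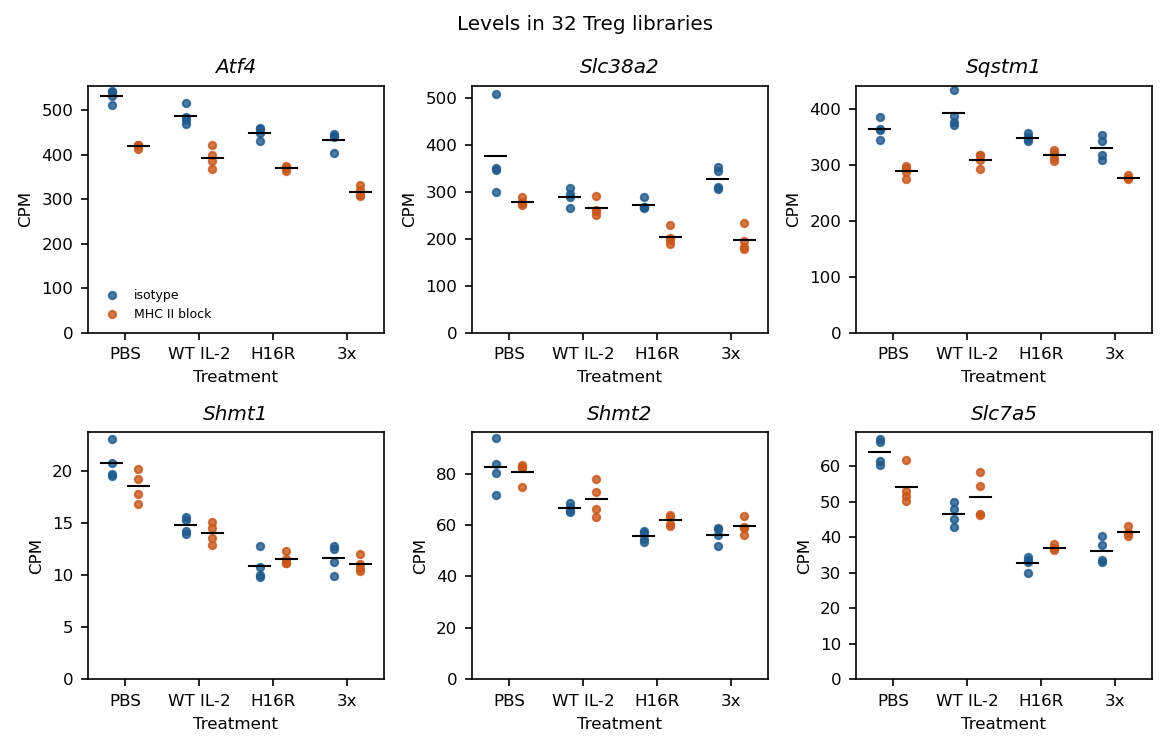
CPM (linear axis from 0) of Atf4, Slc38a2, Sqstm1, Shmt1, Shmt2 and Slc7a5 in each of the 32 Treg libraries, with blue points for isotype, orange points for MHC II block and a bar at each group mean. Atf4 lay between 513 and 543 CPM in isotype PBS Tregs and between 307 and 331 CPM with 3x under MHC II block, and Shmt1 was lower in every treated library than in every PBS library of its arm.

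Chac1, Pycr1, Slc1a4 and Asns had the 4 largest falls with 3x in the isotype arm. With WT IL-2 only Slc1a4 of these was called, and with H16R Slc7a5 (-0.97) and Shmt1 (-0.94) fell further than Asns. Pycr1 was 5.97, 4.13, 4.23 and 3.83 CPM with PBS, 2.88, 2.71, 3.11 and 3.51 with WT IL-2, 1.35, 2.01, 0.871 and 1.64 with H16R, and 0.442, 0.698, 0.558 and 0.52 with 3x. No treated library reached the PBS range, and all 3x libraries lay below all H16R libraries. The fold decrease was 3.14 with H16R (log2 -1.65 ± 0.32, edgeR adjusted p = 6.02e-05) and 8.23 with 3x (-3.04 ± 0.35, adjusted p = 2.55e-08), and with WT IL-2 the value was -0.59 ± 0.30 (adjusted p = 0.109).

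Chac1 was 2.45, 1.87, 2.42 and 1.42 CPM with PBS, 0.928, 2.07, 1.98 and 2.23 with WT IL-2, 0.977, 1.19, 0.653 and 0.548 with H16R, and 0.211, 0.322, 0.248 and 0.13 with 3x. WT IL-2 overlapped PBS, and H16R and 3x did not. Chac1 was 2.47-fold lower with H16R (log2 -1.30 ± 0.38, edgeR adjusted p = 0.00443) and 9.02-fold lower with 3x (-3.17 ± 0.43, adjusted p = 5.6e-07), and its value with WT IL-2 was -0.20 ± 0.36 (adjusted p = 0.675).

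Asns was 5.14, 3.39, 3.98 and 4.21 CPM with PBS, 3.97, 4.01, 3.48 and 3.86 with WT IL-2, 2.41, 2.98, 1.39 and 2.42 with H16R, and 1.64, 1.61, 1.47 and 1.11 with 3x. The H16R and 3x libraries again lay below all PBS libraries. Asns fell by 0.88 ± 0.26 on the log2 scale with H16R (edgeR adjusted p = 0.00513) and by 1.52 ± 0.27 with 3x (2.87-fold, adjusted p = 2.18e-05), and its value with WT IL-2 was -0.14 ± 0.25 (adjusted p = 0.683). Slc1a4 fell with all 3 molecules, from 2.71, 1.77, 2.01 and 2.41 CPM to 0.704 to 2.09 with WT IL-2, 0.413 to 1.1 with H16R and 0.456 to 0.64 with 3x. The folds were 1.83, 3.15 and 4.28 (log2 -0.87 ± 0.31, -1.65 ± 0.33 and -2.10 ± 0.33, edgeR adjusted p = 0.0241, 9.38e-05 and 5.28e-06). The plasma cell marker sum fell over the same groups, from 1522 to 1833 CPM in the PBS libraries to 646 to 782 with WT IL-2, 196 to 450 with H16R and 84.3 to 182 with 3x, and its part in the values of Chac1, Pycr1, Asns, Slc1a4 and Atf5 was not tested.

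**Figure D2:**
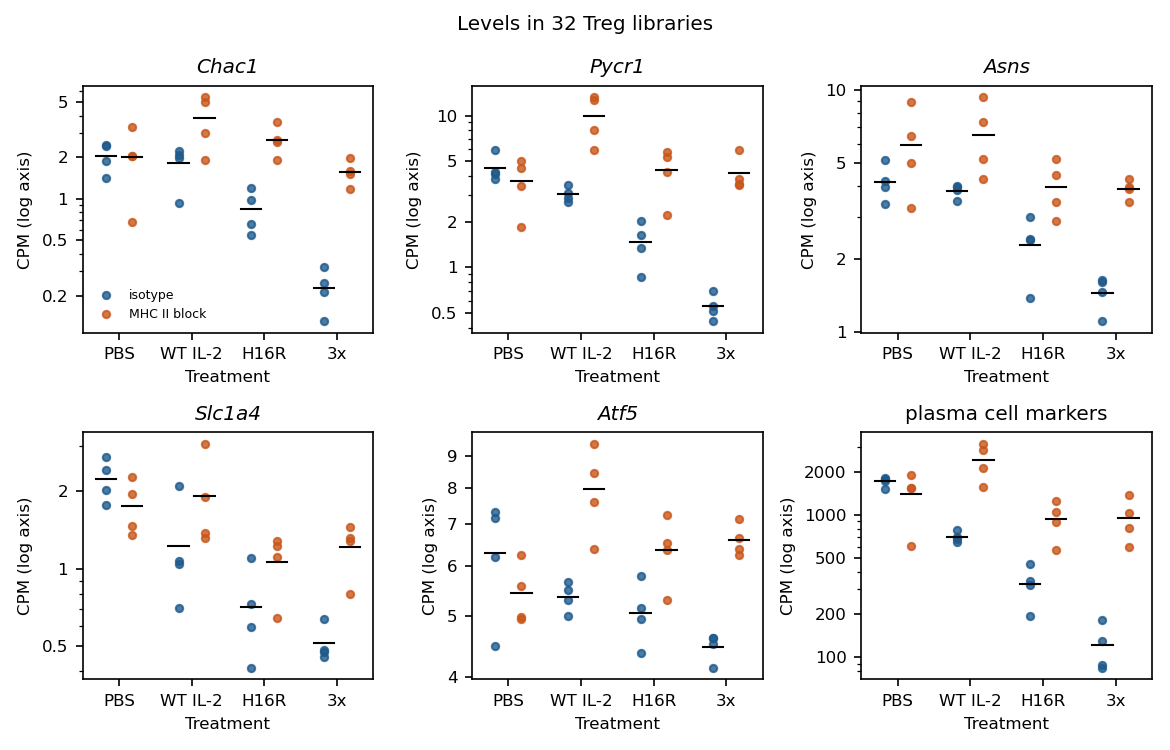
CPM (log axis) of Chac1, Pycr1, Asns, Slc1a4 and Atf5 and of the summed plasma cell markers in each of the 32 Treg libraries, with blue points for isotype, orange points for MHC II block and a bar at each group mean. In the isotype arm Pycr1 ran from 3.83 to 5.97 CPM with PBS down to 0.442 to 0.698 CPM with 3x, while under MHC II block the 3x libraries held 3.51 to 5.95 CPM, and the marker sum had its lowest values in the isotype 3x group (84.3 to 182 CPM).

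The members that rose in the isotype arm were led by Ddit4 (chr10:59949669-59951834), which encodes REDD1, an inhibitor of mTORC1. Ddit4 was 42.6, 43.2, 44.4 and 29.4 CPM with PBS, 64.3, 69.7, 72.4 and 63.3 with WT IL-2, 72.0, 62.8, 72.8 and 67.9 with H16R, and 75.8, 59.2, 63.3 and 62.1 with 3x. All treated libraries were above all PBS libraries. The log2 fold changes were 0.75 ± 0.10, 0.78 and 0.71 (edgeR adjusted p = 1.7e-06, 3.73e-07 and 1.85e-06). No pair of molecules was called for Ddit4 in this arm, and the difference of H16R from WT IL-2 was 0.04 with a 95% interval of -0.17 to 0.24. Sesn2, a leucine-sensing inhibitor of mTORC1, rose from 19.2, 14.8, 18.7 and 16.5 CPM to 21.0 to 25.2 with WT IL-2 (0.44 ± 0.09, adjusted p = 0.000188) and to 20.0 to 23.3 with H16R (0.34, adjusted p = 0.00175), and its value with 3x was 0.17. Sqstm1 rose with WT IL-2 (0.11 ± 0.05, adjusted p = 0.0552) and fell with 3x (-0.13, adjusted p = 0.0175), both small changes against levels of 345 to 385 CPM with PBS.

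Serine synthesis and its use for folate split within the pathway. Psph, the last enzyme of serine synthesis, rose from 17.5, 18.0, 19.2 and 17.4 CPM with PBS to 20.0 to 22.9 with WT IL-2, 21.4 to 25.9 with H16R and 21.9 to 24.6 with 3x, and the treated libraries did not overlap with PBS. Its log2 fold changes were 0.25 ± 0.07, 0.35 and 0.38 (edgeR adjusted p = 4.79e-05 for H16R and 1.59e-05 for 3x). Psat1, the enzyme before it, rose with WT IL-2 (0.19 ± 0.06, adjusted p = 0.0133), and Phgdh, the first enzyme, fell with all 3 molecules (-0.15, -0.29 and -0.18).

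Shmt1 and Shmt2, the cytosolic and mitochondrial enzymes that split serine into glycine and a folate-bound carbon, fell in all 6 comparisons with PBS, those of the MHC II block arm included. Shmt1 was 23.0, 19.7, 20.7 and 19.5 CPM with isotype PBS, 13.9, 15.6, 14.2 and 15.3 with WT IL-2, 9.8, 12.8, 10.0 and 10.8 with H16R, and 12.5, 12.8, 9.89 and 11.2 with 3x. Its log2 fold changes were -0.49 ± 0.08 (edgeR adjusted p = 2.75e-05), -0.94 ± 0.09 and -0.83 ± 0.09, and those of Shmt2 were -0.31 ± 0.07, -0.57 and -0.55. Mthfd2, the mitochondrial folate enzyme that follows SHMT2, went the other way, rising with H16R (0.15, adjusted p = 0.0661) and 3x (0.28, adjusted p = 0.00169), with a value of 0.05 ± 0.07 for WT IL-2. Its PBS libraries had 39.9 to 43.3 CPM and its 3x libraries 45.3 to 56.7, so they did not overlap. Pck2, the mitochondrial phosphoenolpyruvate carboxykinase, rose with WT IL-2 (0.26 ± 0.08) and H16R (0.20), and in its PBS group the fourth replicate was low at 35.5 CPM against 46.0 to 47.1.

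Among the transporters, Slc7a5, the leucine carrier LAT1, fell from 67.6, 61.4, 66.9 and 60.2 CPM with isotype PBS to 42.8 to 49.8 with WT IL-2, 30.0 to 34.5 with H16R and 33.0 to 40.3 with 3x. None of the treated libraries reached the PBS range. The log2 fold changes were -0.47 ± 0.08 (edgeR adjusted p = 1.33e-05), -0.97 and -0.82. Slc3a2, its heavy chain, fell by 0.11, 0.39 and 0.45 on the log2 scale, and Slc7a1, which carries arginine and lysine, fell by 0.22 ± 0.06, 0.52 and 0.39, from 87.0 to 89.4 CPM with PBS to 54.7 to 66.0 with H16R. Slc38a2 fell with WT IL-2 (-0.38 ± 0.10, adjusted p = 0.00318) and H16R (-0.46, adjusted p = 0.00031), and its value with 3x was -0.18 (adjusted p = 0.12). Its PBS libraries were spread, at 300, 351, 345 and 508 CPM. Slc1a5 was the only transporter of the 6 tested that rose in the isotype arm, from 306, 281, 309 and 271 CPM to 377, 378, 369 and 380 with WT IL-2 (0.36 ± 0.05, adjusted p = 4.75e-07), and it was called in both mutein groups too (0.30 for H16R, 0.11 for 3x).

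Among the tRNA genes, Wars, which charges tryptophan tRNA, rose with each molecule, from 65.7, 61.7, 63.8 and 56.9 CPM with PBS to 68.6 to 81.2 with WT IL-2, 70.8 to 82.5 with H16R and 72.8 to 90.2 with 3x. Its treated libraries did not overlap with PBS, and the log2 fold changes were 0.22 ± 0.08, 0.31 and 0.38 (edgeR adjusted p = 0.000108 for 3x). Sars, for serine, rose with H16R (0.19 ± 0.06) and 3x (0.20), with replicate 4 of PBS low at 105 CPM against 130 to 134. Vars fell from 353 to 398 CPM with PBS to 281 to 285 with WT IL-2 and 233 to 251 with 3x, by 0.38 ± 0.05, 0.60 and 0.60 on the log2 scale. The cytosolic synthetases that are not members moved in both directions too. Of 7 of them 2 rose and 3 fell with WT IL-2, 2 and 4 with H16R, and 2 and 3 with 3x, and of 17 mitochondrial synthetases 1 rose and 6 fell, 2 and 7, and 2 and 7. Of all genes 26.0%, 31.4% and 31.3% rose and 26.2%, 32.8% and 32.3% fell.

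**Figure D3:**
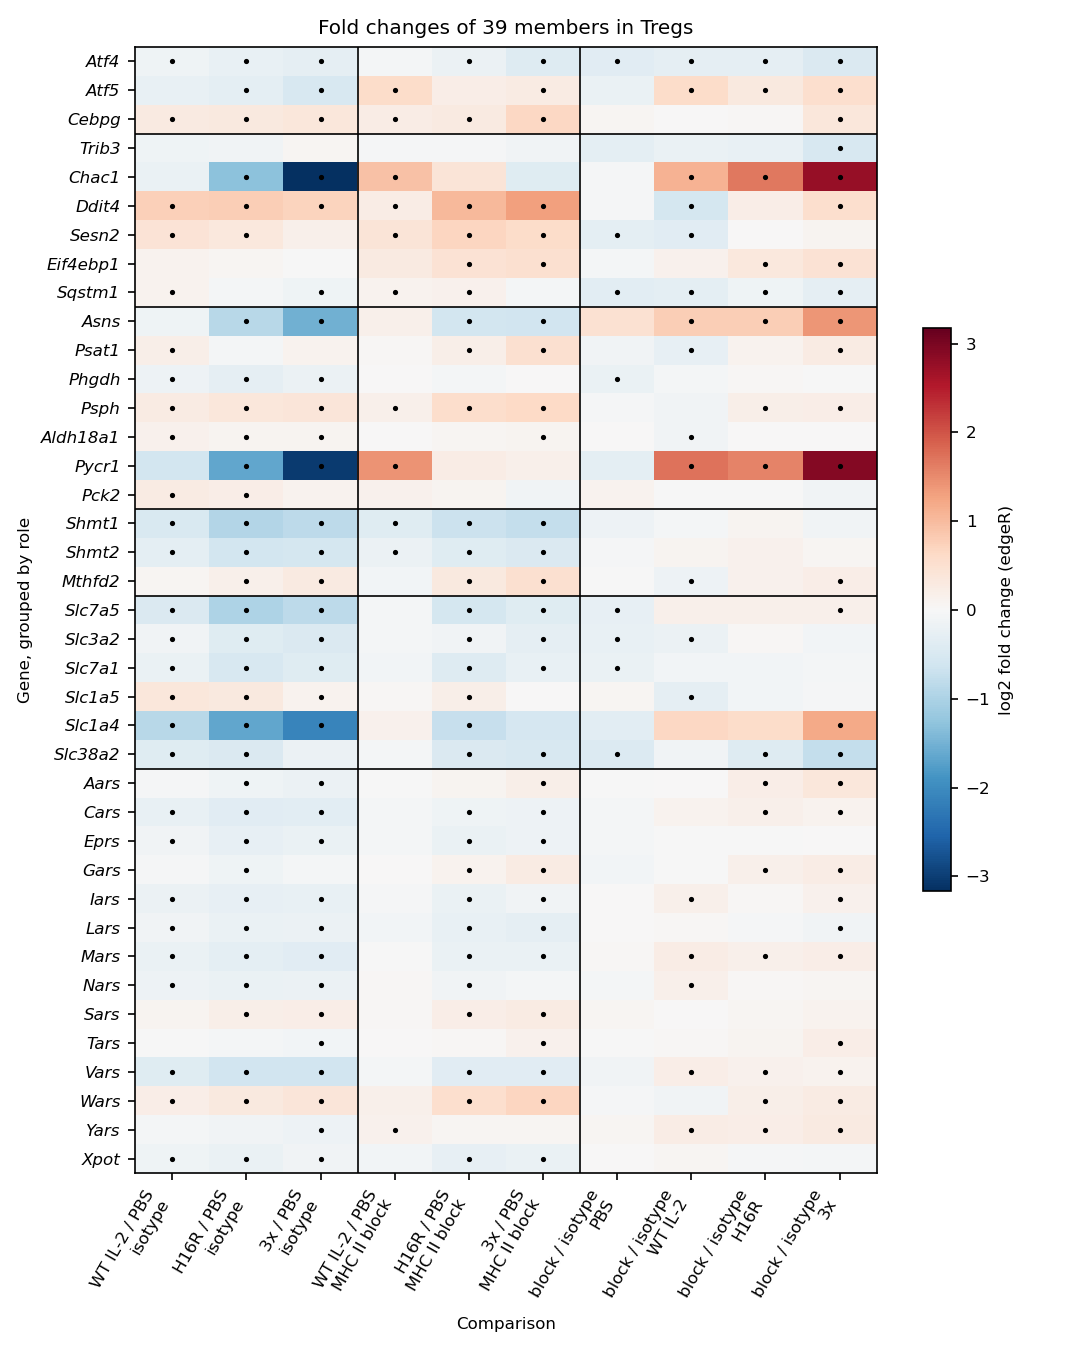
Log2 fold changes of the members tested in Tregs (rows, ordered by role) for each IL-2 molecule against PBS in both antibody arms and for MHC II block against isotype under each treatment, with color for the log2 fold change and a dot on the values called at adjusted p below 0.1. Chac1, Pycr1, Asns and Slc1a4 were lower with both muteins in the isotype arm, down to -3.17 for Chac1 with 3x. Ddit4 was higher with every molecule in the isotype arm and with both muteins under block.

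The same molecules were compared with PBS in mice given the MHC II blocking antibody. With WT IL-2, 9 members rose and 2 fell of 39 (21.9% and 13.7% of all genes), a split that became 7 and 4 with DESeq2's size factors and 5 and 7 with scaling to total counts, and the count was 6 without the first MHC II block PBS replicate. With H16R 12 rose and 17 fell (32.7% and 33.8%), and with 3x 14 rose and 15 fell (34.7% and 38.3%). The median log2 fold change of the members was 0.02, 0.04 and -0.07 beside 0.02, -0.02 and -0.04 for all genes.

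Pycr1 and Chac1 rose with WT IL-2 under MHC II block. Pycr1 was 1.86, 3.46, 4.52 and 5.05 CPM with PBS and 13.2, 8.06, 5.89 and 12.6 with WT IL-2, without overlap (2.69-fold, log2 1.43 ± 0.29, edgeR adjusted p = 0.000593), and its values with H16R and 3x were 0.23 and 0.16. Chac1 was 0.679, 2.05, 2.03 and 3.28 CPM with PBS and 5.43, 2.99, 1.91 and 5.03 with WT IL-2 (1.92-fold, 0.94 ± 0.35, adjusted p = 0.0432). These groups overlapped, and the call was lost without the first MHC II block PBS replicate (0.67, adjusted p = 0.151). It was also lost without the first (0.72, adjusted p = 0.139) or the fourth (0.78, adjusted p = 0.128) WT IL-2 replicate of that arm. The plasma cell marker sum was 605, 1543, 1920 and 1556 CPM with PBS and 3168, 2125, 1563 and 2872 with WT IL-2 in this arm, listed in the same order of replicates, and its part in these values was not tested. Atf5 rose with WT IL-2 (0.57, adjusted p = 0.00162), from 4.94 to 6.25 CPM to 6.38 to 9.4, and with 3x (0.27, adjusted p = 0.0644).

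Asns was 3.25, 4.97, 8.89 and 6.47 CPM with PBS under block, and fell with H16R (2.88 to 5.16 CPM, -0.58 ± 0.25, edgeR adjusted p = 0.0469) and 3x (3.46 to 4.27 CPM, -0.61 ± 0.25, adjusted p = 0.0302). The PBS libraries overlapped both treated groups, and without replicate 3 of PBS neither value was called (-0.29, adjusted p = 0.322, and -0.33, adjusted p = 0.247). Slc1a4 fell with H16R (-0.74 ± 0.32, adjusted p = 0.0468), a call that was lost without the fourth PBS replicate (-0.58, adjusted p = 0.147).

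Ddit4 rose further with the muteins than with WT IL-2 under block. It was 38.5, 40.3, 40.2 and 38.0 CPM with PBS, 49.3, 49.6, 45.0 and 38.4 with WT IL-2, 75.9, 69.0, 90.4 and 88.0 with H16R, and 98.7, 84.9, 99.4 and 103 with 3x. WT IL-2 overlapped PBS and the muteins lay above both. The fold increase was 2.05 with H16R (log2 1.04, edgeR adjusted p = 2.05e-09) and 2.44 with 3x (1.29, adjusted p = 1.68e-11), and the log2 change with WT IL-2 was 0.23. The members that rose with 3x under block included Cebpg (43.9 to 49.0 CPM against 26.4 to 30.5 with PBS, 0.66 ± 0.06, adjusted p = 8.11e-10), Wars (87.9 to 103 CPM against 58.8 to 61.2, 0.68, adjusted p = 6.25e-09), Psph (24.6 to 29.2 CPM against 16.6 to 18.6, 0.62), Mthfd2 (51.8 to 65.6 CPM against 38.7 to 42.0, 0.50, adjusted p = 4.19e-07) and Psat1 (62.8 to 73.8 CPM against 47.4 to 50.7, 0.50, adjusted p = 2.41e-08). In each of these the 3x and PBS libraries did not overlap. Sesn2 rose with all 3 molecules in this arm (0.40, 0.67 and 0.57, adjusted p = 2.76e-07 for H16R). The cell division marker sum rose over the same groups, from 359 to 392 CPM with PBS to 462 to 588 with WT IL-2, 736 to 854 with H16R and 1056 to 1445 with 3x, and its part in the values of Ddit4, Cebpg, Wars, Psph, Mthfd2 and Psat1 was not tested.

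**Figure D4:**
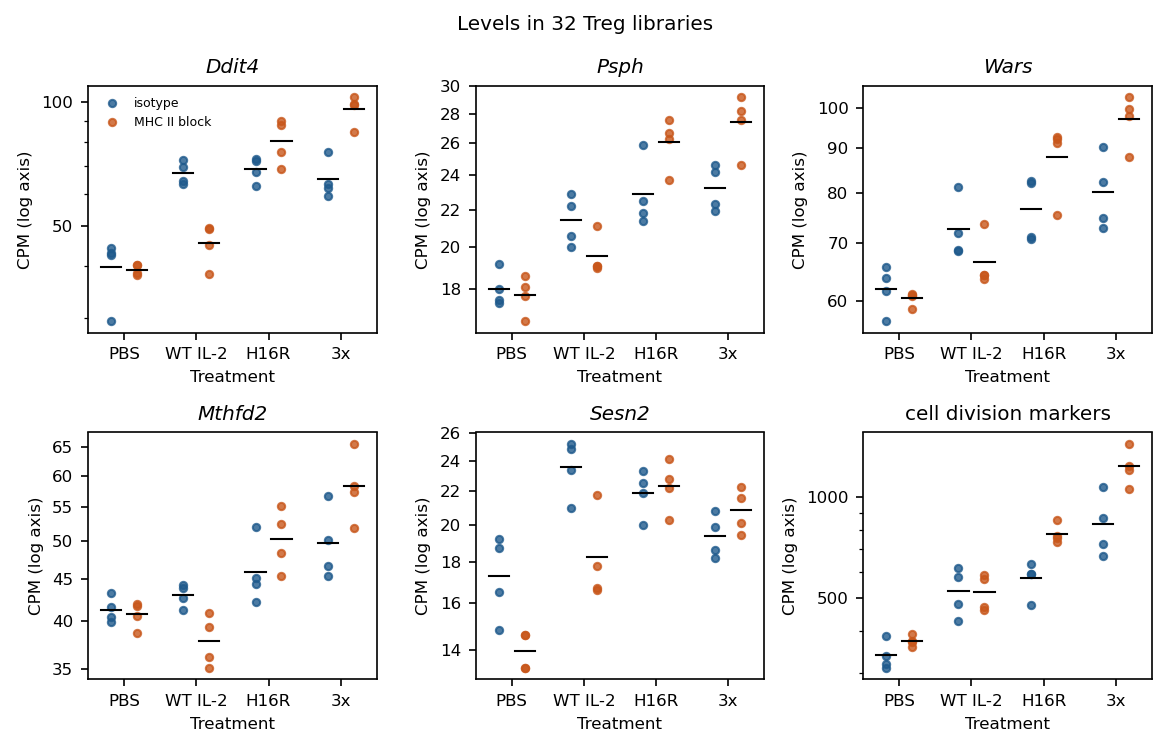
CPM (log axis) of Ddit4, Psph, Wars, Mthfd2 and Sesn2 and of the summed cell division markers in each of the 32 Treg libraries, with blue points for isotype, orange points for MHC II block and a bar at each group mean. Under MHC II block Ddit4 ran from 38.0 to 40.3 CPM with PBS up to 84.9 to 103 CPM with 3x, and the cell division marker sum from 359 to 392 CPM up to 1056 to 1445 CPM.

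Under block Shmt1 and Shmt2 fell with all 3 molecules, and Atf4, Slc7a5 and Slc38a2 with the muteins. Atf4 was 412, 423, 421 and 419 CPM with PBS, 421, 400, 367 and 387 with WT IL-2, 370, 372, 363 and 375 with H16R, and 307, 331, 321 and 309 with 3x. It fell with H16R (-0.18, edgeR adjusted p = 0.000593) and 3x (-0.41, adjusted p = 2.08e-09), both without overlap, and the value with WT IL-2 was -0.07 (adjusted p = 0.23). That value was called with scaling to total counts (-0.12, adjusted p = 0.0283), with limma on either FPKM scale (adjusted p = 0.0246 and 0.0273) and without the 2 libraries that stood apart (-0.11, adjusted p = 0.0488). Shmt1 fell by 0.38, 0.69 and 0.76 on the log2 scale (adjusted p = 0.00132, 9.67e-08 and 8.64e-09), Slc7a5 by 0.55 with H16R and 0.39 with 3x, and Slc38a2 by 0.45 (adjusted p = 0.000416) and 0.50 (adjusted p = 8.71e-05). With WT IL-2 the values were -0.06 for Slc7a5 (adjusted p = 0.606) and -0.05 for Slc38a2 (adjusted p = 0.759). Of the 14 tRNA genes 1 was called, higher, with WT IL-2, 3 rose and 8 fell with H16R, and 5 rose and 7 fell with 3x. Of all genes 21.9%, 32.7% and 34.7% rose and 13.7%, 33.8% and 38.3% fell.

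To see what blocking MHC class II did at a fixed treatment, the antibody arms were compared group by group. In PBS mice 0 members were higher under block and 8 were lower of 39 by edgeR (6.01% and 8.13% of all genes). DESeq2 also had 0 higher and 8 lower, and at an unadjusted p below 0.05 edgeR had 0 and 9. The 8 were Atf4, Sesn2, Sqstm1, Phgdh, Slc38a2, Slc7a5, Slc3a2 and Slc7a1. With WT IL-2, 9 were higher and 9 lower (18.2% and 15.3%), with H16R 13 and 3 (15.4% and 15.2%), and with 3x 21 and 5 (27.2% and 26.9%). With both muteins the share that was higher was above its background. The H16R count of 16 was 8 without the third MHC II block H16R replicate and 10 without the fourth replicate of either H16R group.

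Atf4 was lower under block with every treatment, without overlap between the arms. The log2 differences were -0.35, -0.29, -0.29 and -0.47 for PBS, WT IL-2, H16R and 3x (1.27, 1.22, 1.22 and 1.39-fold, edgeR adjusted p = 3.97e-06, 1.64e-05, 3.27e-05 and 1.58e-09). Sqstm1 was lower in all 4 comparisons too (-0.34, -0.32, -0.14 and -0.28), from 345 to 385 CPM in the isotype PBS libraries to 274 to 298 in the block PBS libraries. Slc38a2 was lower with PBS (-0.44, adjusted p = 0.00611), H16R (-0.42, adjusted p = 0.00427) and 3x (-0.75, adjusted p = 1.11e-06). With 3x its libraries held 178 to 233 CPM under block against 309 to 352 with isotype. Its PBS difference was not called in a fit of those 2 groups alone (-0.43, adjusted p = 0.112).

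Pycr1, Chac1 and Asns were higher under block with each IL-2 molecule. For Pycr1 the differences were 3.29-fold with WT IL-2, 3.0-fold with H16R and 7.51-fold with 3x (log2 1.72 ± 0.29, 1.58 ± 0.31 and 2.91 ± 0.34, edgeR adjusted p = 7.53e-05, 0.000889 and 1.38e-07), and with PBS the value was -0.30 ± 0.30. For Chac1 they were 2.15, 3.18 and 6.77-fold (1.11 ± 0.35, 1.67 ± 0.37 and 2.76 ± 0.43, adjusted p = 0.0184, 0.0025 and 9.49e-06), with -0.04 for PBS. With 3x Chac1 was 0.13 to 0.322 CPM with isotype and 1.17 to 1.99 under block. Asns was 1.73-fold higher with WT IL-2, 1.73-fold with H16R and 2.64-fold with 3x (adjusted p = 0.0178, 0.0283 and 0.0001), and the first of these calls was lost without the fourth MHC II block WT IL-2 replicate (0.56, adjusted p = 0.11). The second was lost without the third MHC II block H16R replicate (0.64, adjusted p = 0.119). The plasma cell marker sum was higher under block than isotype with WT IL-2 (1563 to 3168 against 646 to 782 CPM), H16R (568 to 1246 against 196 to 450) and 3x (594 to 1388 against 84.3 to 182), and its part was not tested.

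Ddit4 and Sesn2 were lower under block with WT IL-2 (Ddit4 -0.55, edgeR adjusted p = 0.000213; Sesn2 -0.36, adjusted p = 0.00259). With 3x Ddit4 was higher under block (0.54). Of these 4 comparisons Trib3 was called only with 3x, where it was 2.31 to 2.62 CPM under block and 2.44 to 4.21 with isotype (-0.51 ± 0.14, adjusted p = 0.00512).

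The response to each molecule was then compared between the arms in a test of the difference itself, as the change against PBS under block minus that with isotype. For WT IL-2, 6 members had a more positive response under block and 2 a more negative one (11.7% and 7.98% of all genes). For H16R the counts were 13 and 0 by edgeR (10.6% and 8.47%), 13 and 0 by DESeq2, and 16 and 0 by edgeR at an unadjusted p below 0.05. For 3x they were 21 and 1 (20.3% and 18.7%), and the 1 was Slc38a2 (-0.32 ± 0.14, adjusted p = 0.091), which was not called with DESeq2's size factors (adjusted p = 0.11), total counts (0.131), no CPM filter (0.137) or without the 2 libraries that stood apart (-0.23, adjusted p = 0.215). The H16R count of 13 was 7 without the first isotype PBS replicate, and 8 without the fourth isotype H16R, the first block PBS or the third block H16R replicate. Pycr1 differed for each molecule (2.01 ± 0.42, 1.88 ± 0.43 and 3.20 ± 0.45, edgeR adjusted p = 0.00135, 0.00617 and 1.18e-05), and Chac1 for H16R (1.71 ± 0.52, adjusted p = 0.0316) and 3x (2.80 ± 0.56, adjusted p = 0.000571). Atf5 differed for each as well (0.81 ± 0.18, 0.55 and 0.77). Ddit4 had a less positive response to WT IL-2 under block (-0.52 ± 0.15, adjusted p = 0.017) and a more positive one to 3x (0.58). Slc1a5 had a less positive response to WT IL-2 (-0.32 ± 0.07, adjusted p = 0.0013). Slc7a5 had a less negative response to each molecule (0.41, 0.42 and 0.42, adjusted p = 0.00842, 0.0136 and 0.00417). For Atf4 itself no difference was called. The values for WT IL-2 and H16R were 0.06, each with a 95% interval of -0.06 to 0.18, and that for 3x was -0.12 with an interval of -0.25 to 0.00, which was called without the 2 libraries that stood apart (-0.13, adjusted p = 0.0897). The plasma cell marker sum given above moved with Pycr1, Chac1 and Atf5 here too, and its part was not tested.

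The IL-2 molecules, which differ by their substitutions in IL-2 and were given at the same dose and time, were compared with each other in 6 pairs. In the isotype arm 0 members were higher and 13 lower for H16R against WT IL-2 (8.87% and 9.77% of all genes). DESeq2 had 0 and 14, and at an unadjusted p below 0.05 edgeR had 0 and 17. In the same arm 1 was higher and 17 lower with 3x than with WT IL-2 (16.9% and 17.7%), and 2 were higher and 3 lower with 3x than with H16R (5.76% and 5.77%). With adjustment over all 6 pairs together, an alternative chosen after seeing the data, these counts were 0 and 15, 1 and 17, and 3 and 4. Pycr1 was lower for H16R against WT IL-2 (-1.07 ± 0.31, edgeR adjusted p = 0.0245), and lower again with 3x than with H16R (-1.39 ± 0.36, adjusted p = 0.0163). Chac1 had the same order (-1.10 ± 0.37, adjusted p = 0.0504, and -1.87 ± 0.45, adjusted p = 0.0102). Leaving out single WT IL-2 or H16R libraries ended the first of these Chac1 calls in 4 cases, with adjusted p-values up to 0.178. In limma on log2(FPKM + 1) that call was lost too (-0.46, adjusted p = 0.124). So were the 3x against H16R calls of Chac1 (-0.39, adjusted p = 0.263) and Pycr1 (-0.44, adjusted p = 0.216). Atf4 was lower with 3x than with WT IL-2 (-0.16, adjusted p = 0.00657). Between 3x and H16R its difference was -0.05 with a 95% interval of -0.13 to 0.04, and that of Asns was -0.64 with an interval of -1.19 to -0.09 (adjusted p = 0.15, but called under the joint adjustment at 0.0693 and with the 2 groups fitted alone at 0.0848) and that of Slc1a4 -0.45 with an interval of -1.15 to 0.26 (adjusted p = 0.507). Slc38a2 (0.28 ± 0.10, adjusted p = 0.0925) and Psat1 (0.17 ± 0.06, adjusted p = 0.0761) were the 2 members higher with 3x than with H16R. Neither was called without the CPM filter (adjusted p = 0.111 and 0.13), nor was Slc38a2 in limma on log2(FPKM + 1) (adjusted p = 0.106).

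Under MHC II block 8 members were higher and 17 lower for H16R against WT IL-2 (25.5% and 32.0% of all genes), 12 were higher and 20 lower with 3x than with WT IL-2 (30.0% and 38.7%), and 6 were higher and 5 lower with 3x than with H16R (12.7% and 12.6%). The joint adjustment gave 8 and 17, 10 and 19, and 7 and 6, and the last pair split as 8 and 4 with scaling to total counts. Ddit4 was higher with H16R (log2 difference 0.81 ± 0.10, edgeR adjusted p = 7.18e-07) and with 3x (1.05 ± 0.10, adjusted p = 2.29e-09) than with WT IL-2, and Psph with H16R (0.39 ± 0.06, adjusted p = 1.8e-05). Mthfd2 was higher with 3x than with WT IL-2 (0.59 ± 0.07, adjusted p = 6.38e-08). Pycr1 was lower with H16R (-1.20 ± 0.29, adjusted p = 0.00129) and 3x (-1.27 ± 0.29, adjusted p = 0.000441) than with WT IL-2. The muteins under block differed from each other in Atf4 (-0.23 ± 0.04 for 3x against H16R, adjusted p = 0.000523), Cebpg (0.38 ± 0.06, adjusted p = 0.000231), Psat1 (0.32 ± 0.06, adjusted p = 0.000439) and Sqstm1 (-0.20 ± 0.05, adjusted p = 0.00247). For Asns the difference between the muteins was -0.04 with a 95% interval of -0.55 to 0.48.

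Tregs and Tcons of the same 16 mice were compared in a fit with a term for each mouse. The fit took both arms and all 4 treatments together, so its values include the differences in the response to IL-2 given below. Of 40 members 11 were higher and 21 lower in Tregs (38.2% and 37.7% of all genes), with 10 of the 14 tRNA genes and 4 of the 6 transporters testable in Tregs among the lower ones. The count of 21 includes Slc7a11, which did not pass the filter in Tregs alone and entered this fit through the Tcon libraries, so its call is not read here (at most 0.223 FPKM in Tregs and 0.211 FPKM in Tcons). Asns was 3.65-fold lower in Tregs (log2 -1.87 ± 0.18, edgeR adjusted p = 2.27e-08), at 0.53 to 4.59 FPKM in all Treg libraries and 2.25 to 17.5 FPKM in Tcons. Slc1a4 was lower too (-0.98 ± 0.16, adjusted p = 1.83e-05), as was Eif4ebp1 (-0.62), a brake on cap-dependent translation. Ddit4 was higher in Tregs (0.87 ± 0.14, adjusted p = 2.22e-05), and so was Sesn2 (0.46 ± 0.05, adjusted p = 2.1e-07). Isotype PBS Tregs had 22.6 ± 4.02 FPKM of Ddit4 (mean ± SD), within the 15.5 to 23.7 FPKM spanned by the Tcon group means. They had 2.08 ± 0.37 FPKM of Asns, below the Tcon group means of 2.63 to 11.7 FPKM. Atf4 was close between the cell types (0.10 ± 0.04, adjusted p = 0.0214), at 241 ± 37.9 FPKM in Tregs and 235 ± 30.4 in Tcons (mean ± SD), and the call was lost with scaling to total counts (0.02, adjusted p = 0.543). B cell markers summed to 101 to 830 CPM in Tcons and to at most 129 CPM in Treg libraries other than the 2 that stood apart. All 5 B cell, 4 plasma cell, 5 myeloid and 2 CD8 T cell markers and the 4 red cell markers tested were called lower in Tregs, with medians of -2.36, -0.57, -0.98, -1.03 and -2.62 on the log2 scale, and their part in the Treg against Tcon differences was not tested.

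In Tcons the IL-2 molecules were compared with PBS over both antibody arms, with 4 libraries for each treatment and the antibody as a covariate. With WT IL-2, 13 members rose and 3 fell (14.8% and 12.4% of all genes), with H16R 15 rose and 6 fell (16.1% and 14.9%), and with 3x 1 rose and 4 fell (4.71% and 5.17%), a split of 0 and 4 with DESeq2's size factors in edgeR, 1 and 5 by DESeq2 and 2 and 5 at an unadjusted p below 0.05. The 13 with WT IL-2 include Slc7a11, which did not pass the filter in Tregs and had at most 0.211 FPKM in Tcons, so its call is not read here. The counts for WT IL-2 and H16R were well above the background for genes that rose. They rested on few libraries, since the WT IL-2 count of 16 ran from 7 without the second block PBS replicate to 28 without the second isotype WT IL-2 replicate, and the H16R count of 21 was 10 without the first isotype H16R replicate and 13 without the first block PBS replicate. Pycr1 was 4.16 and 2.57 CPM with isotype PBS, 12.7 and 5.53 with WT IL-2, 8.42 and 9.09 with H16R, and 1.98 and 1.83 with 3x. Under block it was 2.99 and 3.64 CPM with PBS, 11.7 and 11.0 with WT IL-2, 10.0 and 10.2 with H16R, and 5.54 and 6.55 with 3x, so that 3x lay below PBS with isotype and above it under block. Over both arms it rose 3.0-fold with WT IL-2 (log2 1.59 ± 0.32, edgeR adjusted p = 0.00739) and 2.79-fold with H16R (1.48 ± 0.32, adjusted p = 0.00784). Chac1 rose in the same 2 comparisons (1.58 ± 0.31, adjusted p = 0.00652, and 1.55 ± 0.31, adjusted p = 0.0054), as did Asns (1.18 ± 0.45, adjusted p = 0.0823, and 1.14 ± 0.45, adjusted p = 0.0835). Asns was uneven, at 34.9 and 7.44 CPM in the pair of isotype WT IL-2 Tcon libraries. The plasma cell marker sum was 2648 and 1336 CPM in these 2 libraries, 1211 and 841 with isotype PBS, 1614 and 1808 with H16R, and 324 and 430 with 3x. Under block it was 689 and 1046 with PBS, 2361 and 2483 with WT IL-2, 1635 and 1671 with H16R, and 763 and 1138 with 3x, and its part was not tested.

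**Figure D5:**
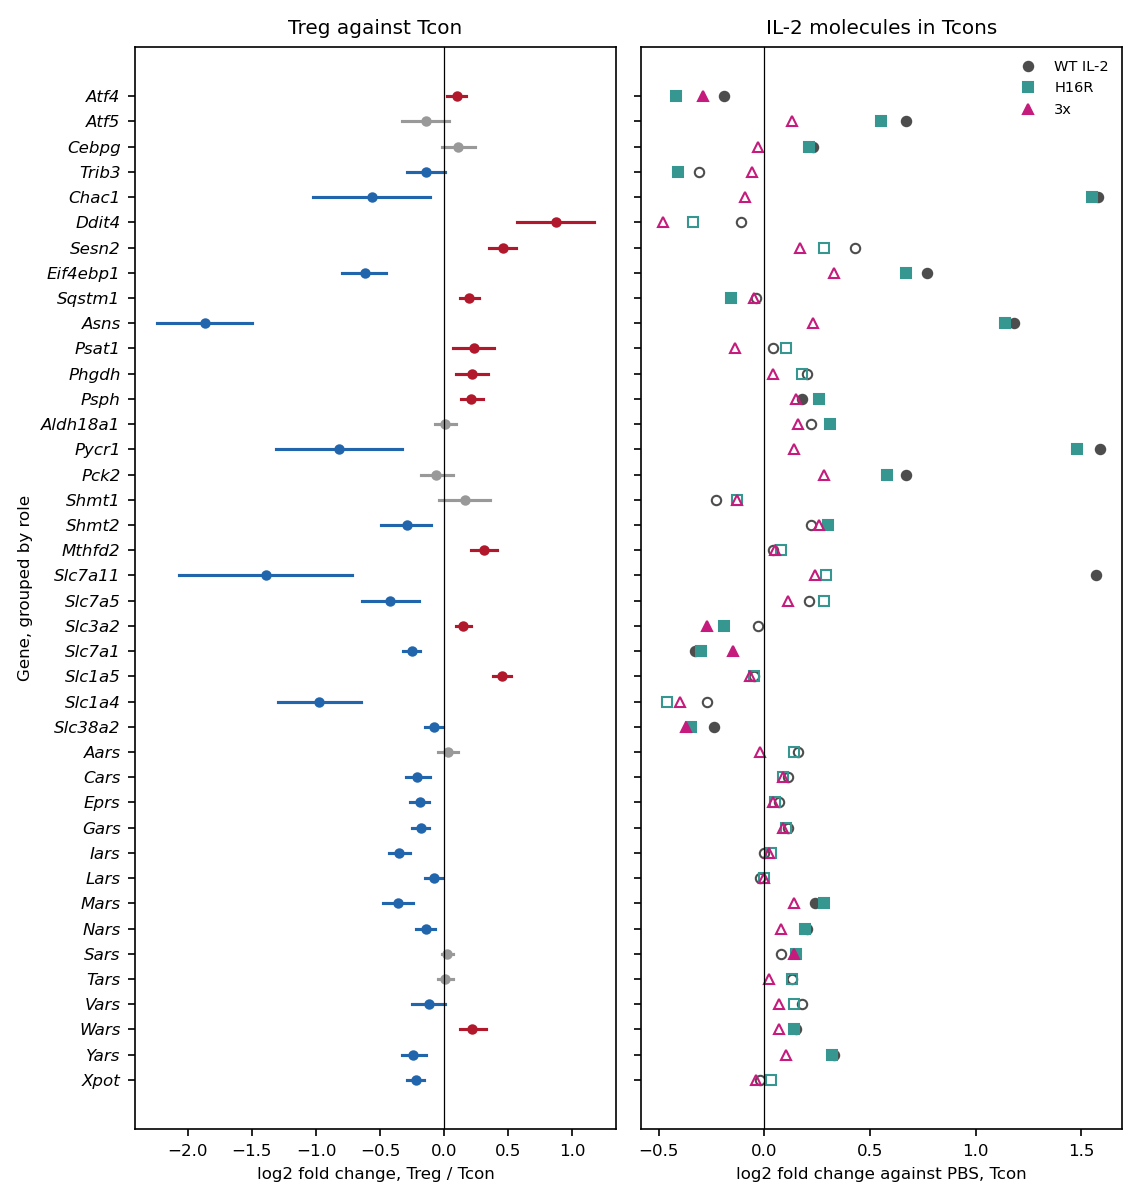
Log2 fold changes of the 40 members with values (rows, ordered by role), including Slc7a11, whose calls are not read. The left panel gives Tregs against Tcons of the same 16 mice with 95% intervals (red for higher, blue for lower and gray for not called), and the right panel gives each IL-2 molecule against PBS in Tcons, with filled symbols for called values. Asns was the member farthest below 0 on the left (-1.87), and Pycr1 and Chac1 had the largest values on the right with WT IL-2 (1.59 and 1.58).

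Atf4 fell in Tcons with each molecule (-0.19 ± 0.05, -0.42 ± 0.05 and -0.29 ± 0.05, edgeR adjusted p = 0.0255, 0.000311 and 0.00893). It was 472 and 511 CPM with isotype PBS and 355 and 351 with isotype H16R. Slc7a1 fell with WT IL-2 (-0.33 ± 0.04, adjusted p = 0.000653), Trib3 with H16R (-0.41 ± 0.15, adjusted p = 0.0714) and Slc38a2 with 3x (-0.37 ± 0.07, adjusted p = 0.0163), where Sars was the member that rose (0.14 ± 0.05, adjusted p = 0.0961). MHC II block against isotype, over all 4 treatments, gave 15 higher and 3 lower members (13.8% and 15.1% of all genes), a count that fell to 7 without the first isotype 3x replicate and to 8 without the second or without the first block 3x replicate. Psat1 (0.38 ± 0.06, adjusted p = 0.00426) and Slc7a5 (0.34 ± 0.11, adjusted p = 0.045) were higher under block, and Sqstm1 (-0.17 ± 0.05, adjusted p = 0.0274) and Atf4 (-0.16 ± 0.04, adjusted p = 0.0152) were lower.

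The change against PBS was finally compared between Tregs and Tcons of the same mice, again as a test of the difference itself. For WT IL-2, 2 members had a more positive response in Tregs and 6 a more negative one (7.26% and 4.94% of all genes), a count of 8 that ranged from 1 to 17 as single mice were left out. For H16R the counts were 4 and 16 (21.8% and 18.8%), and for 3x 7 and 7 (24.3% and 22.2%), a split of 6 and 11 with scaling to total counts. Ddit4 differed for each molecule (0.63 ± 0.18, 1.13 ± 0.18 and 1.42 ± 0.18, edgeR adjusted p = 0.0555, 0.000558 and 4.87e-05). It rose in Tregs and was not called with any molecule in Tcons, where its changes were -0.11, -0.34 and -0.48. Pycr1 (-1.81 ± 0.52, adjusted p = 0.0165), Chac1 (-1.53 ± 0.52, adjusted p = 0.0351) and Asns (-1.42 ± 0.38, adjusted p = 0.0121) had a more negative response to H16R in Tregs, and Atf4 a less negative one (0.23 ± 0.07, adjusted p = 0.0216). In Tregs the H16R responses of Pycr1 and Chac1 differed between the arms by 1.88 and 1.71 (block minus isotype). In the isotype arm the plasma cell marker sum fell in Tregs, from 1522 to 1833 CPM with PBS to 196 to 450 with H16R. In Tcons of that arm the sum rose, from 841 and 1211 CPM to 1614 and 1808. Its part in the Pycr1, Chac1 and Asns differences was not tested. The Chac1 call was lost without the first isotype H16R mouse (-1.24, adjusted p = 0.103), and that of Atf4 with scaling to total counts (0.15, adjusted p = 0.132) and without the first block PBS mouse (0.19, adjusted p = 0.118). For 3x, Shmt2 (-0.80 ± 0.16, adjusted p = 0.00155) and Shmt1 (-0.67 ± 0.20, adjusted p = 0.0156) had a more negative response in Tregs and Cebpg a more positive one (0.57 ± 0.09, adjusted p = 0.00025). The cell division marker sum, which rose with 3x in Tregs, was 386 to 446 CPM with isotype PBS and 242 to 364 with isotype 3x in Tcons, and its part in the Ddit4 and Cebpg differences was not tested.

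Genes upstream of ATF4 were read from a list of the eIF2 kinases, subunits, exchange factor and phosphatases, of which 15 had values. In the isotype arm 2 rose and 6 fell with WT IL-2, 3 and 7 with H16R, and 3 and 5 with 3x. The share that rose was below that of all genes (26.0%, 31.4% and 31.3%). The share that fell was above that of all genes with WT IL-2 and H16R (26.2% and 32.8%) and near it with 3x (32.3%). Under block the counts were 1 and 3, 4 and 6, and 7 and 5. Of all genes 21.9%, 32.7% and 34.7% rose and 13.7%, 33.8% and 38.3% fell in these comparisons. Eif2ak1, the heme-regulated kinase, rose in all 6 comparisons, by 0.30, 0.46 and 0.39 on the log2 scale with isotype and 0.21, 0.44 and 0.38 under block. Eif2ak4, the kinase GCN2 that senses uncharged tRNA, fell in all but WT IL-2 under block (-0.30, -0.57 and -0.60 with isotype, -0.49 and -0.66 with the muteins under block, -0.02 for the exception). Eif2ak3, the endoplasmic reticulum kinase PERK, fell in the same 5 comparisons, and its value in the other was 0.07. Ppp1r15a, the phosphatase subunit that reverses eIF2 phosphorylation and is itself induced by the pathway, fell with all 3 molecules under block (-0.18, -0.50 and -0.88). Of 10 other folate enzymes listed, 3 were called, all lower, with WT IL-2 in the isotype arm and 7, all lower, with H16R, while 2 rose and 5 fell with 3x. Under block 1 rose and 3 fell, 2 and 5, and 3 and 5. The shares of all genes in these comparisons are those given above for the eIF2 list. Mthfd1, the cytosolic folate enzyme, fell in all 6, by 0.49 to 0.94 on the log2 scale, alongside Shmt1 and Shmt2.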

How the data were processed

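Bulk mRNA-seq of 32 Treg and 16 Tcon libraries was read from the authors' tables. The deposited expected counts were made by the authors with OSA in Array Suite on mouse B38 and Omicsoft's RSEM, and are not normalized (72.6% of the values above 0 are whole). The deposited FPKM table holds the same estimates per length and depth, as the authors computed them. The authors' DESeq2 1.30.1 tables hold log2 fold changes, p-values and q-values and a score, and were not used. No column of unnamed samples was present (0).

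Expected counts were rounded to whole numbers, and CPM was computed here with TMM scaling. Genes were kept if protein-coding in GENCODE vM21 and above 0.5 CPM in at least 4 of the libraries fitted, which left 12390 genes for Tregs, 12845 for Tregs against Tcons and 12529 for Tcons. edgeR 4.0.16 (quasi-likelihood, R 4.3.3) was run with Benjamini-Hochberg adjustment over all of these, calls at an adjusted p below 0.1, and the SE from the fit. All 8 Treg groups were fitted together, Tregs against Tcons with the mouse as a block, and Tcons with treatment and antibody. A replicate is a separate mouse by the labels, except that 2 isotype WT IL-2 Treg libraries carry the same mouse label. They were kept as 2 replicates, and without either of them the members called against PBS were 25 and 26. Treg and Tcon libraries share mice by their labels, whereas replicate numbers within Tregs do not pair samples (112 same-number pairs correlated at a median of 0.0249, with 27 over 0.1). Depth was 18.28 M to 51.95 M counts per library, and intervals are 95%. No 2 libraries of the same group agreed within sampling noise (56 pairs).

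The members and lists were chosen with earlier results of these data known. The rule for named members was to give values by library for Atf4, Asns and the members with the largest called change, up to 3 in each direction for each molecule against isotype PBS and each block against isotype comparison and up to 2 elsewhere, with a mean above 1 CPM (23 members). For several of these the text gives ranges in the groups compared instead. Lists were read as counts without a set test. The alternatives were DESeq2 1.42.0, other scalings, no filter, limma 3.58.1 on log2(FPKM + 1) and log2(FPKM + 0.1), an adjusted p below 0.05, the 2 groups alone, blocks and each library left out. Leaving out the 2 libraries that stood apart and the joint adjustment over pairs were added after seeing the data. Scripts were tested on simulated data.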

Additional observations from a re-analysis of the deposited data

Results flagged for a closer look

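In 13 of 184 sets of 4 Treg libraries checked over the named members, 1 library stood far from the other 3 (its gap to the nearest over the whole range was above Dixon's 95% critical value), which chance gives in about 1 of 20 sets. In isotype PBS Tregs the fourth replicate was low in Ddit4 (29.4 CPM against 42.6 to 44.4), Pck2 (35.5 against 46.0 to 47.1) and Sars (105 against 130 to 134). The first isotype 3x replicate was low in Atf4 (403 CPM against 441 to 447) and high in Psat1 (61.9 against 54.1 to 54.8), and the third was high in Slc1a4 (0.64 against 0.456 to 0.484). Under MHC II block, the third PBS replicate was low in Shmt2 (74.9 CPM against 82.4 to 83.6) and Trib3 (2.49 against 2.72 to 2.76), and the first in Wars (58.8 against 60.9 to 61.2). The second WT IL-2 replicate was high in Psph (21.1 CPM against 19.0 to 19.1) and Wars (73.7 against 63.7 to 64.4), the second H16R replicate low in Wars (75.4 against 91.3 to 92.7), and the second 3x replicate high in Pycr1 (5.95 against 3.51 to 3.83).

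The change against PBS differed between the antibody arms, by the test of the difference itself, in 8 members for WT IL-2, 13 for H16R and 22 for 3x. Of all genes, 11.7%, 10.6% and 20.3% had a more positive response under block and 7.98%, 8.47% and 18.7% a more negative one. On the log2 scale the differences (block minus isotype) for WT IL-2 were 2.01 for Pycr1, 0.81 for Atf5, -0.52 for Ddit4 and -0.32 for Slc1a5. For H16R they were 1.88 for Pycr1 and 1.71 for Chac1. For 3x they were 3.20 for Pycr1, 2.80 for Chac1, 0.91 for Asns and -0.32 for Slc38a2. The Asns call was lost without the 2 libraries that stood apart (0.77, adjusted p = 0.131) and in limma on log2(FPKM + 1) (0.45, adjusted p = 0.158), and the Slc38a2 call under the 4 settings given with it in the results.

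The change against PBS, over both arms together, differed between Tregs and Tcons in 8 members for WT IL-2, 20 for H16R and 14 for 3x. Of all genes, 7.26%, 21.8% and 24.3% had a more positive response in Tregs and 4.94%, 18.8% and 22.2% a more negative one. The differences (Treg minus Tcon) for WT IL-2 were 0.63 for Ddit4, 0.26 for Slc1a5, -0.48 for Shmt2 and -0.39 for Pck2. For H16R they were 1.13 for Ddit4, 0.26 for Slc1a5, 0.23 for Atf4, -1.81 for Pycr1, -1.53 for Chac1 and -1.42 for Asns. For 3x they were 1.42 for Ddit4, 0.57 for Cebpg, -0.80 for Shmt2 and -0.67 for Shmt1.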

How the results depend on the processing

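No value changed direction while called. Counts of members called moved by over 1.5 times in these cases. MHC II block against isotype in PBS Tregs gave 5 members with only those 2 groups fitted (8 in the fit of all groups). H16R against WT IL-2 with isotype gave 20 with total counts (13). 3x against H16R with isotype (5) gave 3 at an adjusted p below 0.05, 3 without the CPM filter, 2 with limma on log2(FPKM + 1) and 8 with the 2 groups alone. The H16R difference between arms (13) gave 7 at an adjusted p below 0.05 and 8 without the 2 libraries that stood apart, a setting chosen after seeing the data. The WT IL-2 difference between Tregs and Tcons (8) gave 2 at an adjusted p below 0.05, 4 without the filter and 5 without the mouse block. In Tcons 3x (5) gave 3 without the filter, and MHC II block (18) gave 9 at an adjusted p below 0.05. The causes were not tested. Without the 2 libraries that stood apart the other Treg counts were 25, 31 and 35 against isotype PBS, 9, 29 and 30 against block PBS, and 7, 17, 20 and 26 for block against isotype with PBS, WT IL-2, H16R and 3x.

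As single libraries or mice were left out, the counts of members called ran from 6 (without the first block PBS replicate) to 14 for WT IL-2 under block (11), from 8 to 20 for block against isotype with H16R (16), from 3 to 5 for 3x against H16R with isotype (5), from 7 (without the fourth block 3x replicate) to 15 for 3x against H16R under block (11), and from 7 to 18 for the H16R difference between arms (13). They ran from 1 (without the first isotype WT IL-2 mouse) to 17 (without the second) for the WT IL-2 difference between Tregs and Tcons. In Tcons they ran from 7 to 28 for WT IL-2 (16), 10 to 22 for H16R (21), 3 to 8 for 3x (5) and 7 to 26 for MHC II block (18).

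With replicate blocks the Treg counts against PBS were 26, 33 and 33 with isotype and 10, 29 and 29 under block, and the block against isotype counts were 8, 17, 17 and 25. The block ended the isotype H16R against WT IL-2 call of Atf4 (adjusted p = 0.11), and the numbers did not pair the samples. That call was also lost without the CPM filter (adjusted p = 0.125). Chac1 and Pycr1 in isotype 3x against H16R lost their calls in limma on log2(FPKM + 1), with adjusted p-values of 0.263 and 0.216. The lowest mean levels over the Treg libraries were those of Slc7a11 (0.166 CPM), Slc1a4 (1.33) and Chac1 (1.88). Pycr1 averaged 3.99 CPM, with a lowest Treg group mean of 0.275 FPKM.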

Other observations

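Neighboring stress pathways gave the following counts. Of 8 genes of the other branches of the unfolded protein response, 1 rose and 3 fell with WT IL-2 in isotype Tregs, and 6 were called with each mutein, all lower. Under MHC II block 7 were called with WT IL-2, all higher, and 1 rose and 3 fell with H16R, and 2 and 3 with 3x. Xbp1, the transcription factor that drives secretory expansion and is itself abundant in plasma cells, was -0.23, -0.61 and -0.79 on the log2 scale with isotype (called for the muteins) and 0.65 with WT IL-2 under block (edgeR adjusted p = 0.000209). Hspa5, the chaperone BiP, fell with each molecule in the isotype arm (-0.15, -0.40 and -0.53). The plasma cell markers, 3, 4 and 4 of which fell in the isotype arm and 4 of which rose with WT IL-2 under block, moved over the same groups, and their part was not tested.

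Of 8 genes of the NRF2 pathway, with Nfe2l2 and Keap1 among them, 4 rose and 3 fell with WT IL-2 in the isotype arm. With H16R 4 rose and 2 fell, and with 3x 4 and 3. Nqo1, a quinone reductase, rose by 0.91, 1.67 and 2.57 on the log2 scale, and Srxn1, which repairs peroxiredoxins, by 1.11, 0.84 and 0.64. Under block the same genes were 0.13, 1.22 and 2.35 for Nqo1, where WT IL-2 was not called, and 0.57, 1.10 and 1.30 for Srxn1. Gclm, a subunit of the enzyme that starts glutathione synthesis, fell in all 6 comparisons (-0.19 to -0.48). Of 17 other ATF4 and CHOP linked genes, 12 were tested, and 1 rose and 2 fell with WT IL-2, 1 and 5 with H16R, and 1 and 5 with 3x in the isotype arm, against 4 and 1, 3 and 2, and 6 and 4 under block.

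In the same comparisons with WT IL-2, H16R and 3x, 26.0%, 31.4% and 31.3% of all genes rose and 26.2%, 32.8% and 32.3% fell in the isotype arm, against 21.9%, 32.7% and 34.7% and 13.7%, 33.8% and 38.3% under block.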
